A study of Mus musculus with 4 samples.

Results

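The genes described here make cholesterol and fatty acids or store lipid, and they were taken by name from a list of 35 that was drawn up with earlier results of these data known. They fall into 15 enzymes of the sterol pathway, 5 regulators of that pathway, 9 genes of fatty acid synthesis and 6 genes of the sebaceous gland and of lipid storage. Of the 35, 32 had a probe set that the platform annotation gives to that gene alone, out of 12384 genes on the array, and each gene was read from its probe set with the highest mean. Acat2, Insig1 and Acsl3 had no such probe set and have no level here. Of the 32, 29 lay above a limit for dim genes, a mean log2 intensity of 5.40, and entered the tests over 8031 genes; Acaca, Fads2 and Pparg lay below it and were not tested, though they enter counts and medians over measured genes where said.

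RNA came from hair follicle stem cells of mouse back skin, sorted on YFP, integrin α6 and CD34 from females of strain CD1/C57BL/6 at about 60 days of age. The wild type (WT) group and the Tbx1 conditional knockout (cKO) group had 2 Affymetrix arrays each, numbered as set 1 and set 2 with 1 array of each genotype in a set. All 4 samples carry the same treatment text, wax depilation 48 h before harvest, whereas another label calls both arrays of set 1 quiescent and both of set 2 activated; the sets are named by number. The promoter that drove recombination, the source of YFP and the number of animals per array were not found in the labels. The p-values therefore cover the spread among these 4 arrays, part of which may be technical.

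Cholesterol is made from acetyl-CoA through mevalonate, isoprenoid diphosphates, squalene and lanosterol. The transcription factor SREBP2, encoded by Srebf2, switches these enzymes on when sterol in the endoplasmic reticulum runs low: SCAP carries it to the Golgi for cleavage, and the INSIG proteins hold SCAP back when sterol is plentiful. SREBP1, encoded by Srebf1, does the same for fatty acid synthesis, and both factors are known to act together with the CCAAT-binding factor NF-Y and with Sp1 at their target promoters. In skin these pathways supply the water barrier of the epidermis and the sebum of the sebaceous gland, which adjoins the bulge, the niche of the sorted cells.

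Promoter sequences are shown first, as a description of their letters. Whether they bear on the levels given below was not tested. RefSeq promoters on GRCm38.p6 were matched for 27 of the 35 genes. On either strand within the 250 bases before the start, the letters CCAAT occurred for 11 of 12 sterol genes with a promoter, against 37.5% of all genes, and the GC box GGGCGG occurred for 11 of 12, against 35.4%. The sterol regulatory element was searched as TCACNCCAC and was found for 1 sterol gene, Hmgcs1, against 1.22% of all genes. CCAAT occurred for 3 of 7 fatty acid genes, 4 of 5 regulators and 2 of 3 sebaceous genes. The GC box occurred for 3 of 7, 5 of 5 and 2 of 3 of these, so it was not particular to sterol genes. Some genes have several promoters, 10 for the 5 regulators and 6 for the 3 sebaceous genes, and 1 match sufficed. Counted by promoter, CCAAT occurred in 73.3% for sterol, 42.9% for fatty acid and 50.0% each for regulator and sebaceous genes, against 33.8% of all promoters. The GC box occurred in 80.0% for sterol, 70.0% for regulator, 42.9% for fatty acid and 50.0% for sebaceous genes, against 32.7%. Such matches describe letters, not binding. The sequences below run 5′ to 3′ on the gene's strand and end at the base before the start, with capitals marking CCAAT (or ATTGG, its reverse complement) and, for Hmgcs1, the sterol regulatory element. Hmgcs1 is chromosome 13, plus strand (chr13:119690151-119690350), Idi1 chromosome 13, plus (chr13:8885486-8885605), Sc5d chromosome 9, minus (chr9:42264301-42264420), Cyp51 chromosome 5, minus (chr5:4104698-4104817), and Nsdhl chromosome X, plus (chrX:72918401-72918520).
Hmgcs1: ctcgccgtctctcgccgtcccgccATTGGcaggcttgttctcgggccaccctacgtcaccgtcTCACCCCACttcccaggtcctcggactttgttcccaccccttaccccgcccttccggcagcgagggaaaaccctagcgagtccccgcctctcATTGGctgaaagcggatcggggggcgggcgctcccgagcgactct
Idi1: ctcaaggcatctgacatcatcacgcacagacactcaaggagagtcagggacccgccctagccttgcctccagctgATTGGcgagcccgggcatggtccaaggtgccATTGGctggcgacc
Sc5d: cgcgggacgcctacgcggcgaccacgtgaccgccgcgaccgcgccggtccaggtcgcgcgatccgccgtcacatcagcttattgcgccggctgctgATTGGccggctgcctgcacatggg
Cyp51: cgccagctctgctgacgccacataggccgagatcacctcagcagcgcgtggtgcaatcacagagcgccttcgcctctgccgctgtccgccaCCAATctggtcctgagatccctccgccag
Nsdhl: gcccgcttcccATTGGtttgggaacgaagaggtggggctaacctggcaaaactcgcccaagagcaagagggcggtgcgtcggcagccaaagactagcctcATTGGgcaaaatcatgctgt
Hmgcs1 and Idi1 each hold ATTGG 45 bases before the start, and Idi1 holds a second copy at 14. In Sc5d, Cyp51 and Nsdhl the copy nearest the start begins 24, 29 and 20 bases before it. The element of Hmgcs1 begins 137 bases before the start.

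Sterol pathway enzymes were mostly lower in cKO than in WT, without a gene that passed the test. Of the 14 measured, 12 had a lower mean in cKO and 10 were lower within both sets, where 27.9% of all tested genes were lower within both. For 9 of the 14 both cKO arrays lay below both WT arrays, against 19.9% of tested genes, and for none did both lie above. The median difference, cKO minus WT on the log2 scale, was -0.47, with -0.76 within set 1 and -0.12 within set 2, while the median over all tested genes was 0.029. With all probe sets of each gene averaged, those below the dim limit included, the sterol median was -0.31. None of the 14 had a limma adjusted p under 0.05 (Benjamini-Hochberg over all tested genes); 7 genes of the 8031 did, which is 0.0872%. At an unadjusted p under 0.05, 4 of the 14 passed, against 14.2% of tested genes. An exact two-sided permutation test of 2 arrays against 2 cannot give a p under 0.333. In RNA pooled from many cells, fewer cells that express a gene and less RNA per cell cannot be told apart.

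**Figure D1:**
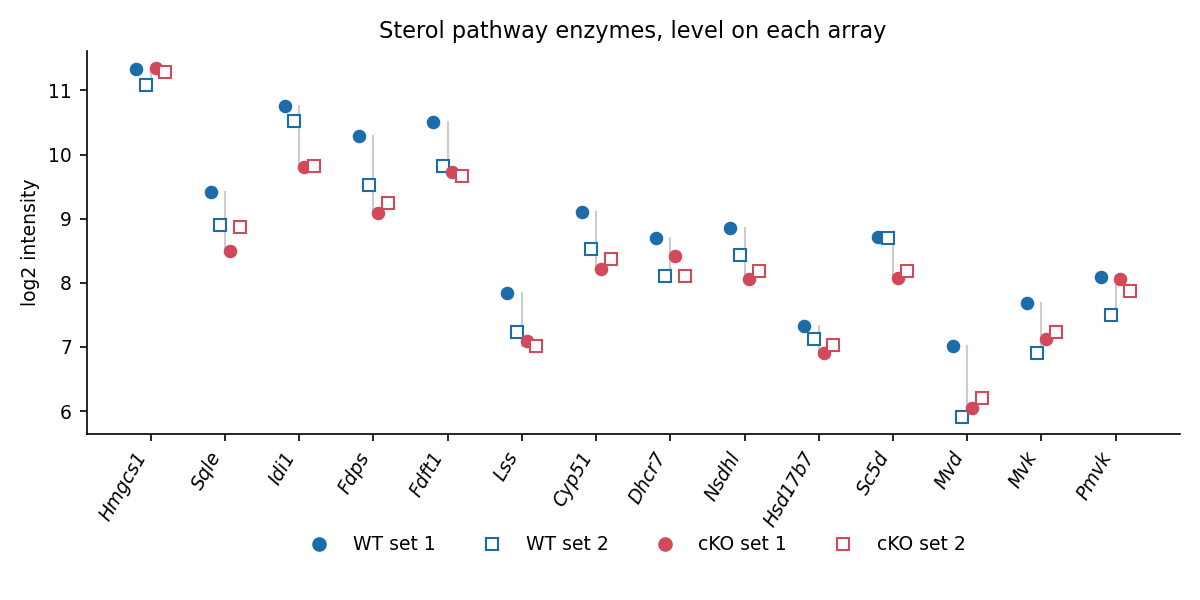
Level of each of the 14 measured sterol pathway enzymes on the 4 arrays, with log2 intensity on the vertical axis, genes on the horizontal axis and grey lines over each gene's range; filled symbols are set 1, open symbols set 2, blue WT and red cKO. The WT set 1 array is the highest for 13 of the 14 genes.

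Idi1, which isomerises isopentenyl diphosphate, had the largest mean difference of the sterol enzymes. It read 9.80 and 9.83 on the cKO arrays and 10.75 and 10.52 on the WT arrays of set 1 and set 2. The groups were 0.70 to 0.95 apart within sets, and the spread within either was small, with means of 9.82 ± 0.019 in cKO and 10.64 ± 0.16 in WT (SD, n = 2). The difference was -0.82 (SE 0.17), which did not pass limma's test (adjusted p = 0.174, and 0.0898 with the set as a block). A second Idi1 probe set read lower still, by -1.13, with -1.20 and -1.05 within the sets.

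Sc5d, a desaturase near the end of the pathway, showed the same layout. It read 8.07 and 8.18 in cKO against 8.71 and 8.70 in WT, so each genotype read nearly alike in both sets. The difference was -0.58 (SE 0.16, limma adjusted p = 0.241). Within set 1, 9 of the 14 sterol enzymes were at least 1.5-fold lower in cKO, against 4.4% of tested genes, and within set 2 1 was, against 7.87%. That 1, Idi1, was at least 1.5-fold lower within both sets, as were 1.64% of all tested genes. These counts use only the brightest probe set of each gene.

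In other enzymes the lower values rested mainly on set 1. Fdps, which makes farnesyl diphosphate, read 9.10 and 9.24 in cKO against 10.29 and 9.53 in WT, a difference of -0.74 (SE 0.27, limma adjusted p = 0.325). In set 1 its cKO signal was 43.7% of WT, and in set 2 it was 81.9%. Fdft1, the squalene synthase gene, read 9.73 and 9.67 in cKO against 10.51 and 9.82 in WT. Sqle, the squalene epoxidase gene, read 8.50 and 8.86 in cKO against 9.42 and 8.90 in WT. For all of these the WT set 1 array stood above the rest, and the WT set 2 array lay closer to cKO set 2 than to WT set 1.

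The enzymes that form and trim lanosterol followed this order. Lss, the lanosterol synthase gene, read 7.10 and 7.02 in cKO against 7.84 and 7.24 in WT. Cyp51, a lanosterol demethylase gene, read 8.22 and 8.37 in cKO against 9.10 and 8.53 in WT. Nsdhl, needed to remove further methyl groups, read 8.05 and 8.18 in cKO against 8.86 and 8.44 in WT. Their differences were -0.48, -0.53 and -0.53, and Hsd17b7, which acts with Nsdhl, differed by -0.25; none passed limma's test (adjusted p from 0.328 for Nsdhl to 0.542 for Hsd17b7). On the brightest probe set the groups of all 4 genes did not overlap. A second probe set gave a larger difference for Cyp51, -0.88, with -1.09 within set 1 and -0.67 within set 2. The second Cyp51 probe set was thus at least 1.5-fold lower in cKO within both sets. For Fdft1 a second probe set gave -0.83, with -1.18 and -0.47 within the sets. For Lss it gave a smaller difference, -0.44, with -0.67 and -0.20. The second probe set of Hsd17b7 differed by -1.03 within set 1 and 0.12 within set 2, and its groups overlapped.

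The first enzymes of the pathway and the last did not share this order. Hmgcs1, which makes HMG-CoA, the precursor of mevalonate, read 11.35 and 11.29 in cKO against 11.33 and 11.09 in WT, a difference of 0.11. Mvd, which makes isopentenyl diphosphate, differed by -0.96 within set 1 and 0.29 within set 2, and the mevalonate kinase gene Mvk by -0.56 and 0.34. Pmvk, the kinase between them, differed by -0.032 and 0.37. Dhcr7, which completes cholesterol, differed by -0.29 and -0.0078. The groups of these 5 genes overlapped. Of the 32 measured genes, 8 differed in opposite directions in the sets, Mvd, Mvk, Pmvk and the dim Fads2 among them, against 36.3% of tested genes.

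The size of the sterol pattern depended on which WT array was read. WT set 1 was the highest array for 13 of the 14 sterol enzymes, whereas it was the highest for 25.6% of tested genes. All 14 were higher on WT set 1 than on WT set 2, with a median of 0.58, as were 4812 of 8031 tested genes. All 14 were also higher on WT set 1 than on cKO set 2, with a median of 0.64, as were 4068 of 8031. WT set 2 was the lowest array for 4 of the 14 and for 3180 of 8031 tested genes. With 2 WT arrays, a high WT set 1 and a low WT set 2 cannot be told apart. Without WT set 1 the median cKO minus WT difference was -0.17 with 9 of 14 lower, and without WT set 2 it was -0.74 with 14 of 14 lower. Idi1 and Sc5d kept nearly their size without WT set 1, at -0.71 and -0.57, while Fdps came to -0.36 and Cyp51 to -0.24.

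**Figure D2:**
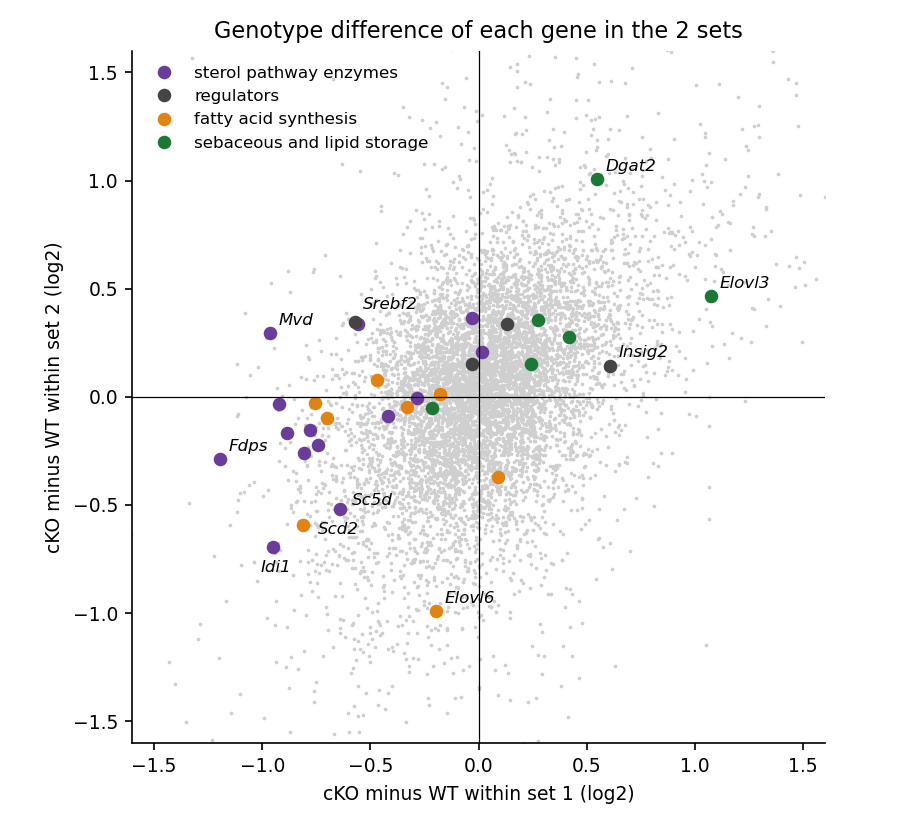
Genotype difference of each of the 32 measured genes within set 1 (horizontal axis) and set 2 (vertical axis), cKO minus WT in log2 units, with all tested genes as grey points and axes that leave out genes with larger differences. Sterol enzymes lie to the left of zero for 13 of 14 genes and spread above and below zero in set 2, and Idi1, Sc5d and Scd2 are lower in both.

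The array that enters the set 1 difference from the other side, cKO set 1, had the largest 3′ minus 5′ differences of its control transcripts. Its 3′ minus 5′ difference was 2.95 for the added Dap control, against 1.74 to 1.82 on the other arrays, and 0.68 for Gapdh, against 0.24 to 0.34. That array was the lowest for 7 of the 14 sterol enzymes, against 19.1% of tested genes. Without it the median sterol difference was -0.38 with 12 of 14 lower, and cKO set 2 against WT set 1 alone, which mixes genotype with set, gave -0.64 with 14 of 14 lower. WT set 2 stood apart from the others in the nuclear RNAs Malat1 (12.35 against 9.80 to 10.56) and Neat1 (9.08 against 7.46 to 8.51), and its part in the set 2 values was not tested.

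The regulators of the pathway did not share one direction. Srebf2 read 8.01 and 7.78 in cKO against 8.58 and 7.44 in WT, with differences of -0.57 within set 1 and 0.35 within set 2; its second probe set differed by -0.053 and 0.30. Srebf1 differed by -0.029 and 0.15, and Scap by 0.13 and 0.34. Insig2, which retains SCAP, read 9.27 and 9.29 in cKO against 8.66 and 9.15 in WT, so the groups did not overlap and WT set 1 was the low array. Its difference was 0.38 (SE 0.21, limma adjusted p = 0.475). In its 2 further probe sets the groups overlapped, with differences of 0.22 and 0.12. The median over the 4 measured regulators was 0.15, and it was -0.19 without WT set 2 and -0.080 without cKO set 1, so its sign rested on single arrays.

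Fatty acid synthesis genes had lower means in cKO, without a gene that passed the test. This held for all 8 measured genes, the dim Acaca and Fads2 included. Within both sets 5 were lower, against 27.9% of tested genes. For 4 the groups did not overlap, against 19.9% of tested genes below in this way. The median difference was -0.30, with -0.40 within set 1 and -0.073 within set 2, and none of the 6 tested genes passed limma's test at either an adjusted or an unadjusted p under 0.05. Without WT set 1 the median was -0.12 with 6 of 8 lower. Without WT set 2 it was -0.57. Among the 6 genes above the dim limit, 3 did not overlap and the median was -0.40.

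Scd2, a desaturase gene that makes monounsaturated fatty acids, was the only one at least 1.5-fold lower within both sets. It read 10.87 and 10.27 in cKO against 11.68 and 10.87 in WT, and the difference was -0.70 (SE 0.33, limma adjusted p = 0.411). Each genotype also had its lower level in set 2, by 0.59 to 0.81, so the lowest WT value and the highest cKO value nearly met. Its 2 further probe sets differed by -0.88 and -0.99 between genotypes. The dimmer of these read 3.75 and 7.68 in cKO against 5.36 and 8.05 in WT, so it was 3.30 higher in set 2, where the brightest Scd2 probe set was 0.70 lower.

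Elovl6, which lengthens palmitate to stearate, was lower mostly within set 2. It read 8.84 and 8.08 in cKO against 9.03 and 9.07 in WT, so the single array cKO set 2 lay apart. The difference was -0.59 (SE 0.27, limma adjusted p = 0.399), and a second probe set gave -0.53 with cKO set 2 again the lowest. Without cKO set 2 the difference was -0.21.

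Fasn, the fatty acid synthase gene, read 8.37 and 8.24 in cKO against 9.07 and 8.34 in WT, with WT set 1 again the high array. Fads1, a desaturase gene of polyunsaturated fatty acids, read 7.67 and 7.84 in cKO against 8.43 and 7.87 in WT. Acly, which supplies cytosolic acetyl-CoA, differed by -0.18 and 0.012 within the sets, and its next brightest probe set by -0.22 and 0.077. A dimmer Acly probe set above the limit differed by -0.90 and -0.18, and its groups did not overlap. Elovl5, an elongase gene of polyunsaturated fatty acids, differed by 0.088 and -0.37. Acaca, which commits acetyl-CoA to fatty acid synthesis, read 3.55 to 3.89 and Fads2 read 4.83 to 5.56, both near or below the dim limit, where differences are compressed.

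Most sebaceous and lipid storage genes had higher means in cKO, again without a gene that passed the test. Of 6 measured genes, 5 had a higher mean in cKO and were higher within both sets, against 35.8% of tested genes, and 4 did not overlap, against 26.7% of tested genes above in this way. The median difference was 0.33, with 0.35 within set 1 and 0.32 within set 2. It ranged from 0.26 to 0.46 with each array left out in turn. None passed limma's test, and Elovl3 and Dgat2 had an unadjusted p under 0.05.

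Elovl3, an elongase gene of very long chain fatty acids known from sebaceous and hair follicle lipid, read 7.14 and 6.75 in cKO against 6.06 and 6.28 in WT. The difference was 0.77 (SE 0.20, limma adjusted p = 0.236), and both cKO arrays exceeded both WT arrays. Dgat2, which makes triglyceride, read 7.99 and 7.65 in cKO against 7.44 and 6.65 in WT, a difference of 0.78 (SE 0.29, limma adjusted p = 0.332). Its second probe set, dimmer and above the limit, differed by 0.057.

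Plin2, the lipid droplet coat protein gene, read 10.73 and 10.58 in cKO against 10.32 and 10.31 in WT, a difference of 0.35 (SE 0.16, limma adjusted p = 0.401). Mgst1, a microsomal glutathione transferase gene with high expression in sebaceous cells, read 11.00 and 10.86 in cKO against 10.73 and 10.51 in WT. Scd1, the desaturase gene of sebaceous glands, read 10.79 and 10.17 in cKO against 10.55 and 10.02 in WT, so the groups overlapped and the sets were further apart than the genotypes. Pparg, a transcription factor gene of lipid-storing cells, read 4.06 to 4.34, below the dim limit on every array.

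**Figure D3:**
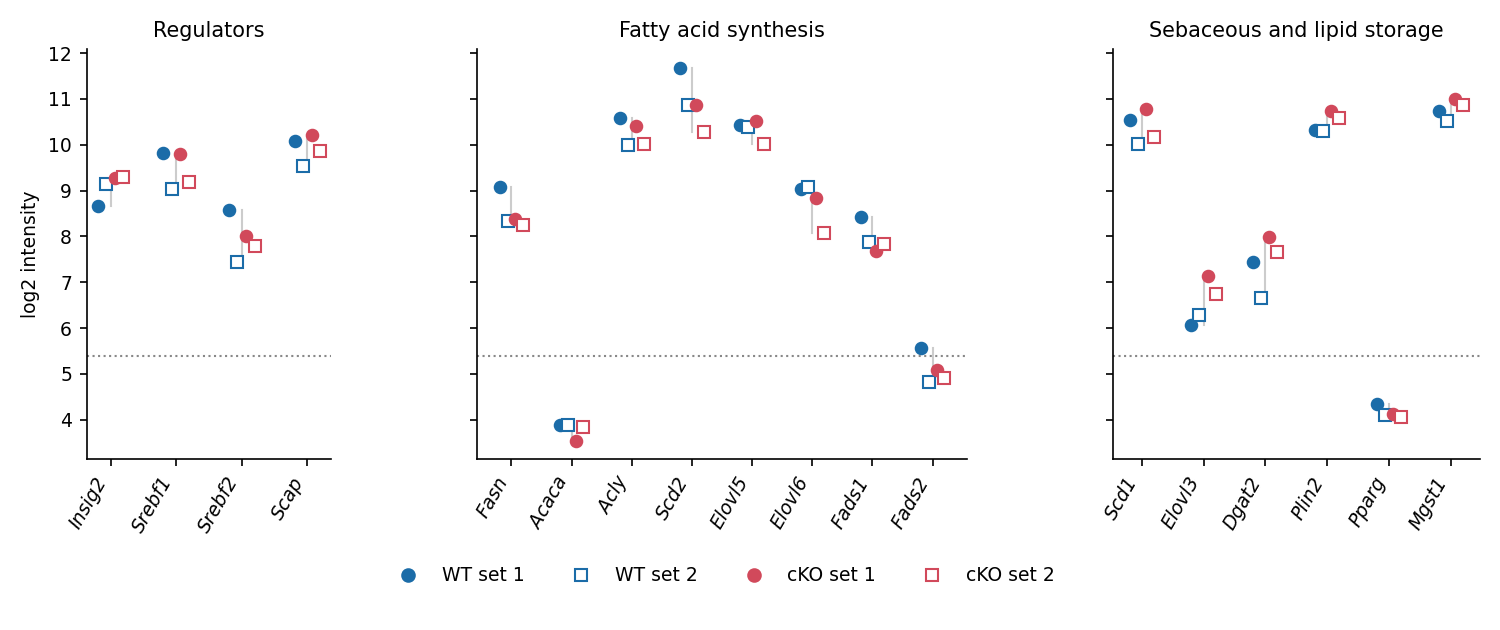
Log2 intensity of the measured regulators, fatty acid genes and sebaceous and lipid storage genes on the 4 arrays; filled symbols are set 1, open symbols set 2, blue WT, red cKO, grey lines span each gene's range and the dotted line is the dim limit of 5.40. Elovl3, Dgat2, Plin2 and Mgst1 have both cKO arrays above both WT arrays, and Acaca and Pparg lie below the line.

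Other genes of these pathways, listed apart from the 35, showed both directions. Of 10 further sterol genes with a probe set, 5 lay below and 3 above without overlap, against 19.9% and 26.7% of tested genes, and none passed limma's test. Stard4, a sterol transfer protein gene, read 6.42 and 7.18 in cKO against 7.76 and 7.67 in WT, a difference of -0.91 (SE 0.27, limma adjusted p = 0.262). Erg28, which scaffolds the demethylation enzymes, differed by -0.61 and Msmo1, a sterol methyl oxidase gene, by -0.44. Npc2, which moves cholesterol out of lysosomes, differed by 0.50.

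Of 5 genes that respond to sterol excess or export sterol, 4 lay above in cKO without overlap, against 26.7% of tested genes, and none below; none passed limma's test. One of the 4, Nr1h3, which encodes a liver X receptor and is named after its values were seen, was dim, as was 1 further gene of the list. Mylip, a liver X receptor target whose product degrades the LDL receptor, read 9.22 and 9.14 in cKO against 8.42 and 8.41 in WT, a difference of 0.76 (SE 0.15, limma adjusted p = 0.175). Abca1, the cholesterol exporter gene, read 10.83 and 10.74 in cKO against 10.05 and 10.66 in WT, with WT set 1 the low array. Apoe differed by 0.27.

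Among 19 further fatty acid genes, 4 of them dim, 8 lay above and 2 below without overlap, against 26.7% and 19.9% of tested genes. The elongase genes Elovl4 and Elovl7 differed by 0.83 and 0.66, Tecr, a reductase of the elongation cycle, by -0.62, and the dim Fads3, of the fatty acid desaturase family, by 0.54. Among 9 further genes of the sebaceous gland 3 lay above, the dim Mc5r included, and none below; the 3 of 9 is near the 26.7% of tested genes. Gata6, a transcription factor gene of the upper follicle and sebaceous duct, differed by 1.01 (SE 0.18, limma adjusted p = 0.162, and 0.0528 with the set as a block), Far1, which makes fatty alcohols, by -0.78, Fabp5 by 0.49 and Mc5r, whose level was dim, by 0.45. None of these genes passed limma's test.

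Between sets, most genes had a lower mean in set 2, without a gene that passed the test. The exceptions were Insig2, higher in set 2 by 0.26, the dim Acaca by 0.16 and Sc5d by 0.048. Set 2 minus set 1 medians were -0.56 for regulators, -0.39 for fatty acid genes, -0.26 for sterol enzymes and -0.17 for sebaceous genes, with -0.051 over all tested genes. On the brightest probe sets, both set 2 arrays lay below both set 1 arrays for 12 of the 32 genes. That compares with 19.5% of tested genes, and the 12 include the dim Fads2 and Pparg. For none did both lie above, against 11.1%. Among further probe sets with a mean above the limit, set 2 lay above in this way for Insig2 (by 0.61) and Scd2 (by 3.30). It lay below for Acly, Dgat2, Elovl5, Hmgcs1, Mvd and Scd1. limma called 0 of the 8031 genes between sets (0% of tested genes), 230 (2.86%) had an unadjusted p under 0.05, and 4 of these were among the 29 tested here, Srebf1, Srebf2, Acly and Scd1.

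Srebf1 read 9.80 and 9.83 in set 1 and 9.18 and 9.03 in set 2 in the order cKO and WT, a set difference of -0.71 (SE 0.18, limma adjusted p = 0.999). Scap read 10.21 and 10.07 in set 1 and 9.87 and 9.53 in set 2. Scd1 differed by -0.57 and Acly by -0.48. In these 4 genes both genotypes had the lower level in set 2.

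Of the 14 sterol enzymes, 5 were lower in set 2 in both genotypes, near the 35.8% of all tested genes. Within WT all 14 were lower in set 2, with a median of -0.58, against 4812 of 8031 tested genes and a median of -0.086. Within cKO 5 were lower and the median was 0.11, against 4502 of 8031 tested genes and a median of -0.034. Without WT set 1 the sterol set median was 0.11. Whether the set difference differs between genotypes cannot be tested with 1 array of each kind.

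**Figure D4:**
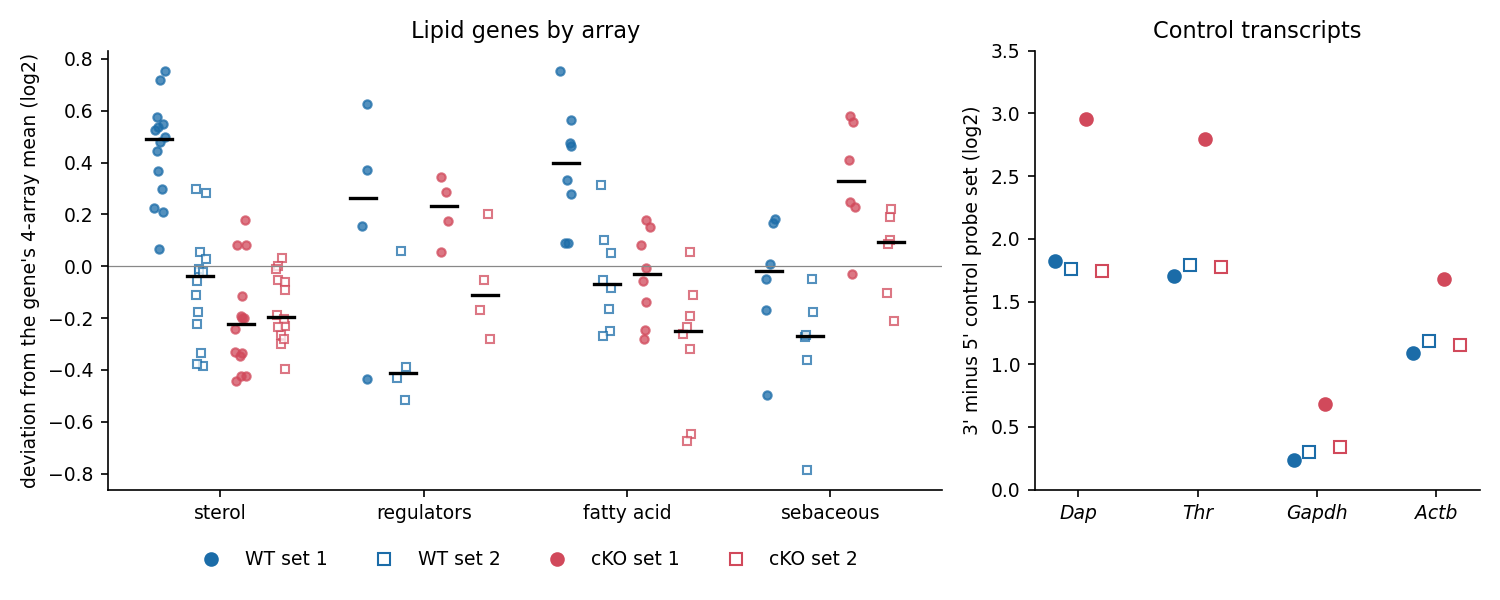
Left, deviation of each measured gene from its mean over the 4 arrays (log2) by list and array, with bars at the median; right, 3′ minus 5′ log2 difference of control transcripts on each array. The sterol medians are 0.49 on WT set 1, -0.039 on WT set 2, -0.22 on cKO set 1 and -0.20 on cKO set 2, and cKO set 1 has the largest 3′ minus 5′ difference for each control shown.

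Marker genes bear on which cells the RNA came from. All 10 bulge markers were above the dim limit, with Krt15 between 13.39 and 13.94 and Cd34 between 8.85 and 9.46. Tbx1 read 9.54 and 8.88 in cKO against 10.53 and 10.37 in WT. Its difference was -1.24 (SE 0.25, limma adjusted p = 0.172, and 0.0424 with the set as a block), and where its probe set lies relative to the deletion was not found in the labels. Among sebaceous gland markers 7 of 9 with a probe set were higher in cKO within both sets, against 35.8% of tested genes. Of the rest, Krt79 was lower within set 1 and Pparg within both sets. The mean level over the 9 was 8.22 and 8.08 on the cKO arrays and 7.95 and 7.57 on the WT arrays. All 9 are also among the sebaceous genes given above, so they are not separate evidence, and Pparg and Mc5r were dim on every array. Suprabasal markers had mean levels of 9.08 and 8.56 in cKO and 8.86 and 7.22 in WT. Endothelial markers, 7 of 10 of them dim, were lower in cKO within both sets for 9 of 10, against 27.9% of tested genes. Their mean levels were 4.25 and 4.29 in cKO against 5.60 and 5.42 in WT. Plvap read 4.29 and 4.19 in cKO, below the dim limit, against 8.29 and 7.78 in WT (limma adjusted p = 0.0065). The fat cell markers Adipoq, Lep, Cidec and Retn were below the dim limit on every array. Lpl, of the same list, was above it on every array, at 6.23 and 6.53 in cKO against 5.99 and 6.29 in WT. Fabp4, shared with endothelium, read 3.38 and 4.07 in cKO against 10.13 and 10.42 in WT (limma adjusted p = 0.0031). Plvap and Fabp4 were among the 7 genes that limma called between genotypes. Both were below the dim limit on the cKO arrays and entered the test only through their WT level, so these calls carry that limit. The part of these markers in the lipid genes' differences was not tested.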

How the data were processed

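RNA was hybridised to 4 Affymetrix arrays, 2 per genotype. The deposited intensity values are on a linear scale, from 5.29 to 25561, and were made by RMA, per the submitters' processing notes. The RMA version was not given in the sources. This method usually returns log2 values, so log2 was taken. Probe sets with 1 gene symbol were kept, without controls, Xist and Y-linked genes, and each gene was read from its brightest probe set. Genes under the 40th percentile of mean level (log2 5.40) were not tested. limma 3.58.1 in R 4.3.3 compared genotypes, and separately sets, with Benjamini-Hochberg adjustment, and was tested on simulated data. Both arrays of a set share a number and a state label; their deviations from group means correlated across 8031 genes (r = 0.192), so the set was also fitted as a block. Other alternatives changed the dim limit, probe set rule, scaling, variance model and arrays. All 35 genes are named, with up to 4 per further list, by size. The genes and lists were chosen with earlier results of these data known. Promoters are RefSeq's.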

Additional observations from a re-analysis of the deposited data

Results flagged for a closer look

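Several genes differed between genotypes in opposite directions in the sets, with 36.3% of all tested genes doing so. Values are cKO minus WT on the log2 scale, from 1 array of each genotype per set, and the difference between sets was not tested. Among enzymes that act on mevalonate and its phosphates, Mvd was -0.96 in set 1 and 0.29 in set 2, Mvk was -0.56 and 0.34, and Pmvk was -0.032 and 0.37. Srebf2 was -0.57 and 0.35, and Srebf1 was -0.029 and 0.15. Among fatty acid genes Acly was -0.18 and 0.012, Elovl5 was 0.088 and -0.37, and the dim Fads2 was -0.47 and 0.076. These are values of the brightest probe sets, and a dimmer Acly probe set was lower within both sets.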

How the results depend on the processing

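With the set number as a replicate block, which pairs the arrays of a set, limma called 83 genes between genotypes in place of 7, and none was among the 35 lipid genes (lowest adjusted p 0.0898, Idi1). A dim limit at percentile 60 gave 0 calls, a variance trend with a robust fit 28, an adjusted p threshold of 0.10 gave 39, and leaving out each array in turn 2 to 16 (2 without WT replicate 2, 16 without cKO replicate 2). Between sets the genotype as a block gave 1 call in place of 0. Over 544 recomputed values no tested lipid gene passed the threshold, and 41 values of tested genes changed sign. Among the dim genes, the set difference of Acaca came to -0.0089 without cKO replicate 1 (0.16 before) and the genotype difference of Fads2 to 0.17 without WT replicate 1 (-0.20 before).

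The median difference between genotypes with each array left out ran from -0.74 to -0.17 for sterol enzymes, -0.19 to 0.46 for regulators, -0.57 to -0.12 for fatty acid genes and 0.26 to 0.46 for sebaceous genes. The sebaceous set median ran from -0.47 to -0.033, and was -0.18 both among genes above the dim limit and with arrays centred. With cKO set 2 against WT set 1 alone, an alternative chosen after seeing the data, the genotype medians were -0.43 for regulators, -0.62 for fatty acid genes and 0.17 for sebaceous genes, and with probe sets averaged the genotype median was 0.26 for sebaceous genes, -0.40 for fatty acid genes and -0.31 for sterol enzymes. The averages take in probe sets below the dim limit. With probe sets averaged, the set difference of Sc5d was -0.013 and that of Scd2 0.83 (0.048 and -0.70 before), and the genotype difference of Srebf2 was 0.0059 (-0.11 before). With the next brightest probe set, the genotype difference of Srebf2 was 0.12 and that of Scd1 -0.047 (0.20 before). With each array left out, signs changed between genotypes for Hmgcs1 -0.0085 to 0.23, Dhcr7 -0.44 to 0.15, Mvd -0.89 to 0.22, Mvk -0.50 to 0.28, Pmvk -0.13 to 0.46, Srebf1 -0.34 to 0.46, Srebf2 -0.68 to 0.46, Scap -0.037 to 0.51, Acly -0.37 to 0.21, Elovl5 -0.39 to 0.11, Scd1 -0.11 to 0.51, and between sets for Sqle -0.54 to 0.39, Idi1 -0.58 to 0.37, Fdps -0.91 to 0.29, Fdft1 -0.76 to 0.013, Lss -0.71 to 0.033, Cyp51 -0.65 to 0.23, Nsdhl -0.55 to 0.25, Hsd17b7 -0.24 to 0.18, Sc5d -0.27 to 0.37, Mvd -0.96 to 0.0053, Insig2 -0.045 to 0.56, Elovl6 -0.86 to 0.13, Fads1 -0.57 to 0.18, Elovl3 -0.62 to 0.45, Plin2 -0.29 to 0.13. The cause of these changes was not tested, and 2 arrays per group limit the precision.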
